A study of Homo sapiens with 6 samples.

Results

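The genes examined here encode enzymes that build purine and pyrimidine nucleotides from small precursors. The 10 genes were PPAT, GART, PFAS, PAICS, ADSL and ATIC, which carry out the purine steps up to inosine monophosphate (IMP), IMPDH2 and GMPS, which turn IMP into GMP, and CAD and CTPS1 of pyrimidine synthesis. They were chosen by gene symbol, and each matched 1 of the 59653 genes of the count table. The RNA came from the human ovarian cancer line SK-OV3, labelled wildtype and, per the study, lacking p53. The cells were transfected for 48 h in full serum with 50 nM of pooled siRNAs against the lncRNA PVT1 (siPVT1) or of a pool without a target (siControl), with 3 libraries in each group. Both groups received the transfection reagent, and with 1 cell line and 1 pool against PVT1, loss of PVT1 and other effects of that pool cannot be told apart. The labels do not say whether the libraries came from separate cultures, so p-values measure the spread between these libraries, which may be technical.

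De novo synthesis assembles a purine ring step by step on phosphoribosyl pyrophosphate (PRPP), using glutamine, glycine, aspartate and formyl groups carried by folate, and makes the pyrimidine ring before it is joined to PRPP. Growing cells depend on these routes for RNA and DNA, and several of the genes are known targets of the transcription factor MYC, whose gene lies beside PVT1. Several of these enzymes are targets of antimetabolite drugs used in cancer and in immune disease.

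Each library held between 28383171 and 35059576 estimated counts, and the 10 genes had between 847 and 10438 counts in a library. The targeted lncRNA PVT1 was at 105, 134 and 108 CPM (counts scaled to a common library size) in siControl replicates 1, 2 and 3 and at 75.0, 67.9 and 65.8 CPM in siPVT1 replicates 1, 2 and 3, a log2 fold change of -0.74 (SE 0.10, adjusted p = 0.000465). All 7 epithelial and SK-OV3 markers (KRT7, KRT8, KRT18, KRT19, EPCAM, ERBB2 and PAX8) were detected, with summed levels of 869 to 948 CPM in siControl and 1046 to 1159 CPM in siPVT1. They moved both ways. At an adjusted p under 0.05 KRT8, KRT18, KRT19 (8.27 to 40.3 CPM on average) and PAX8 (84.9 to 168 CPM) rose. KRT7 and ERBB2 fell, and EPCAM, at 3.13 CPM in siControl, did not pass. Of 9 markers of immune, endothelial, stromal and liver cells, 4 passed the filter, and the summed level of the 9 ran from 24.4 to 25.3 CPM in siControl and from 45.6 to 58.1 CPM in siPVT1. PECAM1 rose from 1.21 to 9.55 CPM on average, COL1A1 from 3.65 to 16.1 CPM and VWF from 0.788 to 2.48 CPM. Each of these had an adjusted p under 0.05, while CD68 did not pass (adjusted p = 0.124). The markers PTPRC, CD3E, MS4A1 and COL3A1 had at most 3 counts in every library, and the part of these markers in the results was not tested. In bulk RNA a smaller number of cells expressing a gene cannot be told apart from less RNA per cell.

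Most of the 10 genes were lower after PVT1 knockdown. Of the 10, 8 fell at an adjusted p-value under 0.05 in edgeR's quasi-likelihood test, 0 rose, and PAICS and GMPS did not pass. Among all 19008 genes tested, 29.2% were lower and 29.2% higher at that threshold, 58.4% in all. Among the 4235 genes at least as abundant as the least abundant of the 10 (50.9 CPM on average), 32.8% were lower and 40.2% higher. The median log2 fold change of the 10 genes was -0.80, against -0.01 for all genes tested and 0.04 for the genes of like abundance. For 8 genes every siPVT1 library lay below every siControl library, which held for 33.5% of all genes. The changes were moderate in size. PFAS and ATIC fell past both thresholds of the study (adjusted p under 0.05 and a log2 fold change of at least 1 in size), as did 9.86% of all genes and 4.06% of those of like abundance, while 11.6% of all genes rose past both and 21.4% passed both in either direction. That count rested on single libraries, being 0 without siPVT1 replicate 1 or replicate 2, 1 without siControl replicate 3 and 4 without siPVT1 replicate 3, and it was 0 in a test against a 2-fold change. The summed level of the 10 genes was 1641, 1583 and 1638 CPM in siControl replicates 1, 2 and 3 and 944, 1007 and 1260.0 CPM in siPVT1 replicates 1, 2 and 3.

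**Figure D1:**
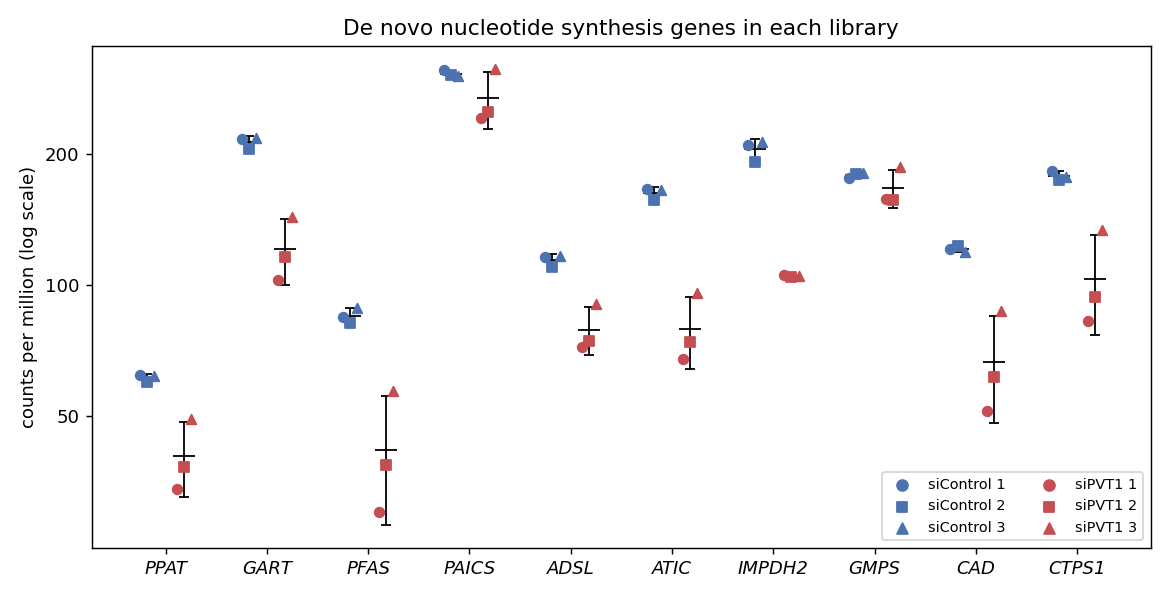
CPM (log axis) of the 10 synthesis genes in each of the 6 libraries, with the mean and SD (n = 3) of each group as black marks. The 2 groups overlap for PAICS and GMPS, where siPVT1 replicate 3 lies at 313 and 186 CPM, and do not overlap for the other 8 genes.

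PPAT and PAICS both encode purine enzymes and lie head to head. PPAT, whose amidotransferase commits PRPP to the purine route, is on the minus strand at chr4:56393362-56435615 (GRCh38, GENCODE v44), and PAICS, which carries a carboxylase and a synthetase activity, is on the plus strand at chr4:56435741-56464578. The starts of their canonical transcripts are 645 bases apart. The sequence between both genes (read from RefSeq windows on GRCh38.p14) is shown because both are transcribed away from it, together with the stretch around the motif CACGTG, the E-box that MYC and MAX are known to bind. The motif, in capitals, lies 182 bases before the start of PPAT and reads the same on both strands. It lies outside the gap and within the bounds of PAICS, at base 41 after a RefSeq start of PAICS (base 56435752). The canonical start of PAICS comes later, at base 56436260. Both sequences are written on the plus strand, the first from chr4:56435616-56435740 and the second from chr4:56435782-56435801.
PPAT-PAICS gap: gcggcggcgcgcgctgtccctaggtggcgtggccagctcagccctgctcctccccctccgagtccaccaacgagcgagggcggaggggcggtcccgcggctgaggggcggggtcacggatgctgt
PPAT-PAICS site: gtatttgctgCACGTGgaaa

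PPAT was at 62.1, 60.0 and 61.8 CPM in siControl replicates 1, 2 and 3 and at 34.1, 38.2 and 49.4 CPM in siPVT1 replicates 1, 2 and 3. All siPVT1 libraries were below all siControl libraries, and PPAT fell by 0.59 on the log2 scale (SE 0.12, adjusted p = 0.00401). PAICS was at 310, 302 and 300.3 CPM in siControl and at 241, 249 and 313 CPM in siPVT1. The groups overlapped, with siPVT1 replicate 3 above the siControl libraries, and the log2 fold change of PAICS was -0.19 (95% interval -0.41 to 0.04, adjusted p = 0.138). Without that library it was -0.31 with an adjusted p of 0.000158. It was -0.11 without siPVT1 replicate 1 (adjusted p = 0.344) and -0.13 without siPVT1 replicate 2 (adjusted p = 0.369). The log2 ratio of PPAT to PAICS counts went from -2.31 ± 0.03 to -2.73 ± 0.08 (SD, n = 3 each). This ratio was lower in all siPVT1 libraries (difference -0.42, two-sided exact permutation test, p = 0.1, which is the smallest p that 3 libraries against 3 allow, and 0.1 after adjustment over 2 pairs of neighbours).

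GART, at chr21:33503931-33543491 on the minus strand, encodes an enzyme with 3 catalytic activities of the purine route, and PFAS, at chr17:8247618-8270491 on the plus strand, the amidotransferase that acts between them. GART was at 216, 205 and 217 CPM in siControl and at 103, 116 and 143 CPM in siPVT1 replicates 1, 2 and 3. The groups were well apart, and GART fell by 0.82 on the log2 scale (SE 0.11, adjusted p = 0.000449). PFAS was at 84.3, 81.9 and 88.7 CPM in siControl and at 30.1, 38.7 and 57.0 CPM in siPVT1, the widest spread, as the ratio of the highest to the lowest siPVT1 library, of the 10 genes. It fell by 1.02 on the log2 scale (SE 0.20, adjusted p = 0.00287), and this value was -1.30 without siPVT1 replicate 3 and -0.82 without siPVT1 replicate 1. By their outermost annotated bounds both genes overlap a gene on the opposite strand. GART overlaps the splicing cofactor gene SON over 454 bases and PFAS the telomere maintenance gene CTC1 over 441 bases. Both overlaps lie before the start of the canonical transcript, which is at base 33542117 for GART and 8249289 for PFAS. SON rose from 408 to 514 CPM (log2 fold change 0.33, SE 0.07, adjusted p = 0.00505) and CTC1 from 20.1 to 29.7 CPM (log2 fold change 0.56, SE 0.08, adjusted p = 0.000665). The neighbours thus moved in the direction opposite to GART and PFAS. The log2 ratio of GART to SON went from -0.94 ± 0.06 (SD, n = 3) to -2.10 ± 0.11 (SD, n = 3), a difference of -1.16 with the same p of 0.1 in the exact permutation test. Further annotated overlaps on the opposite strand were SGSM3-AS1 for ADSL and unnamed loci for PPAT and IMPDH2. How reads in the overlaps were assigned is not given in the sources used here, and their part in these values was not tested.

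ADSL and ATIC carry out the last purine steps before IMP, and ADSL acts again on the branch to AMP. ADSL, on the plus strand at chr22:40346461-40390463, was at 116, 110 and 117 CPM in siControl and at 72.1, 74.5 and 90.3 CPM in siPVT1 replicates 1, 2 and 3. It fell by 0.53 on the log2 scale (SE 0.09, adjusted p = 0.00132). ATIC, on the plus strand at chr2:215311956-215349773, encodes the enzyme that adds the last formyl group and closes the ring. It was at 166, 156 and 165 CPM in siControl and at 67.7, 73.9 and 95.9 CPM in siPVT1, and fell by 1.04 on the log2 scale (SE 0.12, adjusted p = 0.000185), a value close to that of PFAS. It has 2 copies of CACGTG in its RefSeq window, 1 beginning 46 bases before the start (chr2:215312003-215312028) and 1 at base 30 after it (chr2:215312078-215312103). Both are shown on the plus strand of GRCh38.p14 with the motif in capitals.
ATIC site 1: gccggcgggcCACGTGataagcccgg
ATIC site 2: cctacctgcgCACGTGgtgccgccgc
RefSeq windows from 250 bases before to 50 bases after a start were found for 8 of the 10 genes, with none for ADSL and IMPDH2. Of these 8 genes, ATIC, PPAT and PAICS had CACGTG in at least 1 window, PPAT and PAICS through the same letters, and 8.77% of all 27305 genes in the table did. A match is a description of the letters only. Of the genes with the motif, ATIC and PPAT fell and PAICS did not pass the test. Of those with a window but no motif, GART, PFAS, CAD and CTPS1 fell and GMPS did not pass. DHODH of pyrimidine synthesis, outside the 10, also had the motif, 159 bases before its start.

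IMPDH2 fell while its successor GMPS did not pass the test. IMPDH2, on the minus strand at chr3:49024325-49029447, encodes the dehydrogenase that limits the rate of GMP synthesis. It was at 209, 191 and 213 CPM in siControl and at 105.5, 104.5 and 104.8 CPM in siPVT1 replicates 1, 2 and 3, a narrow range. IMPDH2 fell by 0.96 on the log2 scale (SE 0.06, adjusted p = 7.69e-06). GMPS, on the plus strand at chr3:155870650-155944020, encodes the synthetase of the next step. It was at 176, 180 and 181 CPM in siControl and at 158, 157 and 186 CPM in siPVT1, with siPVT1 replicate 3 above all siControl libraries. Its log2 fold change was -0.10 (95% interval -0.27 to 0.07, adjusted p = 0.293), an interval that excludes a fall of the size seen for IMPDH2 and leaves room for a small one. Without siPVT1 replicate 3 the value for GMPS was -0.18 with an adjusted p of 0.00445. It was -0.05 without siPVT1 replicate 1 (adjusted p = 0.583) or replicate 2 (adjusted p = 0.665).

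IMPDH1, the second IMP dehydrogenase, was at 30.7, 31.4 and 30.8 CPM in siControl and at 9.67, 9.90 and 10.04 CPM in siPVT1 replicates 1, 2 and 3. It fell by 1.65 on the log2 scale (SE 0.07, adjusted p = 1.64e-06). The log2 ratio of IMPDH2 to IMPDH1 counts was higher in every siPVT1 library, going from 2.72 ± 0.10 to 3.41 ± 0.03 (SD, n = 3 each). ADSS2, the adenylosuccinate synthetase of most tissues, had a log2 fold change of 0.01 (95% interval -0.13 to 0.15, adjusted p = 0.875). The muscle isoenzyme ADSS1 was scarce, at 0.73, 1.06 and 0.74 CPM in siControl and 5.55, 3.72 and 2.49 CPM in siPVT1, and rose by 2.21 on the log2 scale (SE 0.33, adjusted p = 0.000648). The log2 ratio of ADSS2 to ADSS1 went from 6.36 ± 0.34 (SD, n = 3) to 4.24 ± 0.64 (SD, n = 3), so that ADSS2 was the more abundant in both groups. For each of 4 pairs of isoenzymes the groups did not overlap in the ratio, and each again had p = 0.1 by exact permutation, and 0.1 after adjustment over the 4.

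Along the pyrimidine route CAD, DHODH, UMPS and CTPS1 fell. CAD, on the plus strand at chr2:27217369-27243943, encodes a protein with 3 enzyme activities that starts the route. It was at 121, 123 and 119 CPM in siControl and at 51.4, 61.5 and 87.1 CPM in siPVT1 replicates 1, 2 and 3. CAD fell by 0.85 on the log2 scale (SE 0.17, adjusted p = 0.00288), and by 1.09 without siPVT1 replicate 3. DHODH, the mitochondrial enzyme of the next step, went from 16.6 ± 0.370 to 6.30 ± 1.19 CPM (SD, n = 3 each), a fall of 1.39 on the log2 scale (SE 0.13, adjusted p = 5.9e-05). UMPS, which makes uridine monophosphate, went from 53.4 ± 2.03 to 28.4 ± 8.60 CPM (SD, n = 3 each), a fall of 0.91 (SE 0.18, adjusted p = 0.00322). CTPS1, on the plus strand at chr1:40979300-41012565, makes CTP from UTP and is the isoenzyme known for its role in dividing lymphocytes. It was at 182, 174 and 176 CPM in siControl and at 82.6, 94.0 and 133 CPM in siPVT1, and fell by 0.78 on the log2 scale (SE 0.16, adjusted p = 0.00326). Its partner CTPS2 had a log2 fold change of -0.06 (95% interval -0.24 to 0.13, adjusted p = 0.577). The log2 ratio of CTPS1 to CTPS2 counts went from 3.13 ± 0.06 to 2.38 ± 0.47 (SD, n = 3 each), with siPVT1 replicate 3 at 2.91, closest to the siControl libraries.

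**Figure D2:**
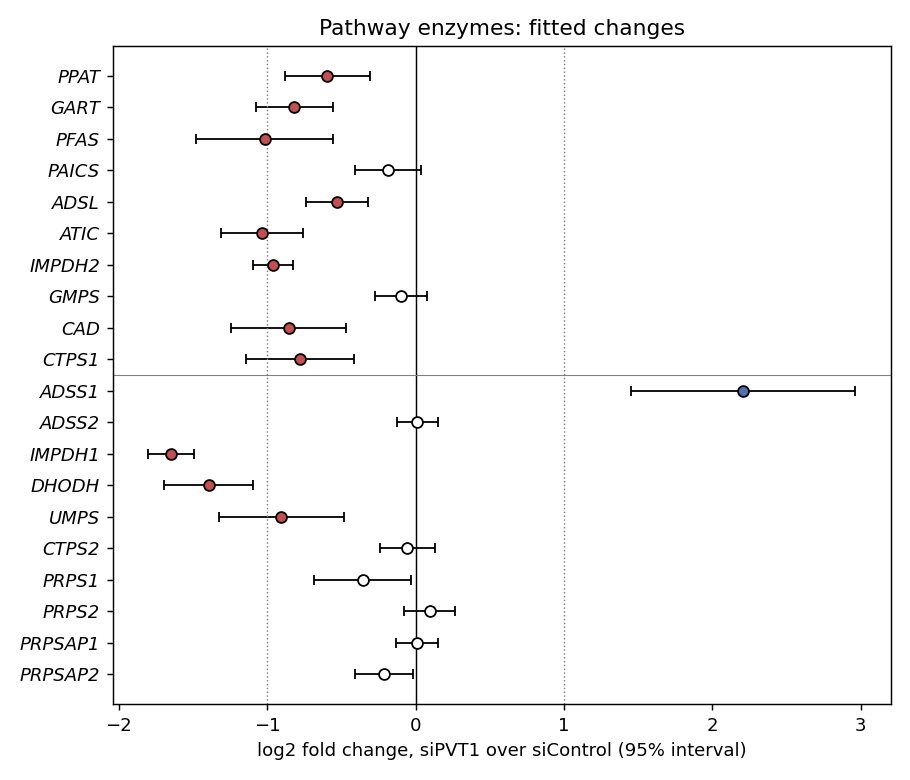
Fitted log2 fold change, siPVT1 over siControl, with its 95% interval for the 10 synthesis genes (above the line) and for the further de novo enzymes and PRPP synthetases (below it). Filled points have an adjusted p under 0.05 (red lower, blue higher), open points do not, and the dotted lines mark a 2-fold change. IMPDH1 at -1.65 and ADSS1 at 2.21 lie farthest from 0.

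PRPP is made by PRPS1 and PRPS2, which bind the associated proteins PRPSAP1 and PRPSAP2. Their log2 fold changes were -0.36 (adjusted p = 0.0587), 0.10 (adjusted p = 0.3), 0.01 (adjusted p = 0.915) and -0.21 (adjusted p = 0.0608), and 0 of these 4 genes passed the test. At an unadjusted p under 0.05 PRPS1 and PRPSAP2 were lower. PRPS1 did pass in DESeq2 (adjusted p = 0.0313) and in edgeR with no filter (adjusted p = 0.0233). In edgeR it also passed with total count scaling (adjusted p = 0.016) and with a term for the replicate number (adjusted p = 0.043). It did not pass with median-ratio factors (adjusted p = 0.057) or with another filter (adjusted p = 0.0529). Without siPVT1 replicate 3 PRPS1 passed (adjusted p = 8.95e-06). PRPS1 was at 42.4, 43.7 and 62.3 CPM in siPVT1 replicates 1, 2 and 3 against 66.2, 61.9 and 62.1 CPM in siControl. PRPSAP2 also passed without siPVT1 replicate 3 (-0.29, adjusted p = 0.00208). The log2 ratio of PRPS1 to PRPS2 went from 0.33 ± 0.01 to -0.14 ± 0.22 (SD, n = 3 each). The testis gene PRPS1L1 had at most 2 counts in a library and was not tested.

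Levels of different genes were compared per kilobase of the canonical transcript, since longer transcripts yield more reads, and the transcripts used by these cells may have other lengths. In siControl, IMPDH2 led with 124 ± 7.03 CPM per kilobase (SD, n = 3), followed by ATIC at 82.3 ± 2.60, GART at 64.1 ± 1.91, CTPS1 at 62.5 ± 1.56 and PAICS at 47.7 ± 0.814. ADSL, GMPS, PPAT, CAD and PFAS followed at 26.2, 20.7, 16.6, 16.6 and 15.8 CPM per kilobase. Only GART and CTPS1, PPAT and CAD, and CAD and PFAS overlapped with their neighbour in this order. In siPVT1, IMPDH2 was again the highest at 63.5 ± 0.300 CPM per kilobase, and PAICS was second at 42.0 ± 6.20. PAICS, ATIC, CTPS1 and GART then overlapped from one to the next, between 42.0 and 36.4 CPM per kilobase on average. GMPS came before ADSL, though their libraries overlapped, and PFAS stayed the lowest at 7.81 ± 2.56.

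The siPVT1 libraries differed from each other more than the siControl libraries did. The SD was larger in siPVT1 for 9 of the 10 genes, against 68.8% of all genes tested, with IMPDH2 as the exception. The highest siPVT1 library was a median of 1.41 times the lowest for the 10 genes, against 1.05 in siControl, and these medians were 1.28 and 1.13 for all genes tested. siPVT1 replicate 3 had the highest level of the siPVT1 libraries in 9 of the 10 genes, which held for 40.4% of all genes and for 58.7% of the 5556 genes that were lower at an adjusted p under 0.05. siPVT1 replicate 1 had the lowest level in 8 of the 10, against 38.1% of all genes and 53.5% of those lower. PVT1 itself was at 65.8 CPM in siPVT1 replicate 3, the lowest of all libraries. Without siPVT1 replicate 3 all 10 genes were lower at an adjusted p under 0.05, and without any other 1 library 8 were.

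**Figure D3:**
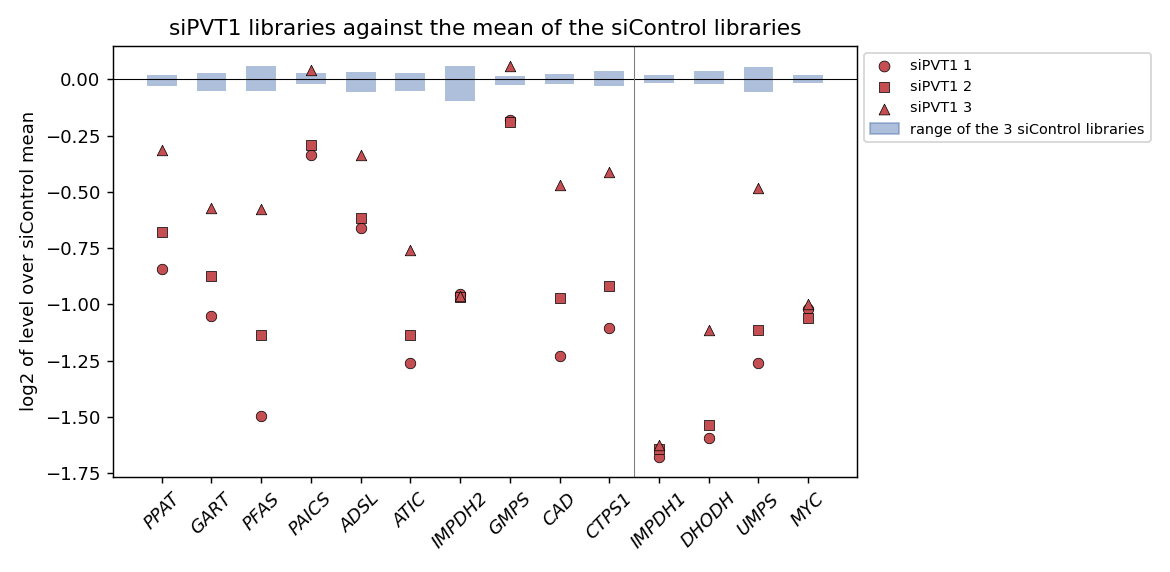
Level of each gene in siPVT1 replicates 1, 2 and 3 (symbols) as log2 of its ratio to the mean of the siControl libraries, with the range of the 3 siControl libraries as blue bars. The 10 synthesis genes stand left of the line and IMPDH1, DHODH, UMPS and MYC right of it. CAD runs from -1.23 to -0.47 among siPVT1 libraries, while IMPDH2 stays between -0.97 and -0.95.

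Among regulators, MYC was at 247, 241 and 243 CPM in siControl and at 120.1, 117 and 122 CPM in siPVT1 replicates 1, 2 and 3, a log2 fold change of -1.03 (SE 0.05, adjusted p = 2.74e-06). Its siPVT1 libraries spanned a ratio of 1.04 from highest to lowest, against a median of 1.41 for the 10 genes. The ratio was 1.01 for IMPDH2 and for PRPSAP1, 1.04 for IMPDH1, 1.19 for GMPS, 1.69 for CAD and 1.89 for PFAS. MAX, the partner of MYC, fell by 0.41 on the log2 scale (SE 0.09, adjusted p = 0.00386). ATF4, which drives genes of amino acid supply, fell by 0.47 (SE 0.07, adjusted p = 0.000612), and MTOR, whose kinase raises purine and pyrimidine synthesis, by 0.89 (SE 0.12, adjusted p = 0.000445). MXI1, an antagonist of MYC, rose by 2.22 (SE 0.24, adjusted p = 0.000116), from 14.7 ± 0.201 to 68.6 ± 23.9 CPM (SD, n = 3 each), and MXD3 by 1.08 from a low level. The related genes did not move together. MNT rose by 0.78 and MXD4 by 0.73, while MXD1 fell by 0.86 (SE 0.08, adjusted p = 5.92e-05) and MGA by 0.55 (SE 0.07, adjusted p = 0.000289). Of 14 regulators tested, 8 were lower and 5 higher at an adjusted p under 0.05, against 29.2% lower and 29.2% higher among all genes tested. Their part in the levels of the synthesis genes was not tested.

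Of 18 genes of serine, folate, glutamine and aspartate metabolism tested, 11 were lower and 3 higher, with a median log2 fold change of -0.47. These genes supply carbon and nitrogen to the ring, and among all genes tested 29.2% were lower and 29.2% higher. The lowest values belonged to ASNS, asparagine synthetase, at -1.91 (137.9 ± 2.56 to 36.9 ± 10.1 CPM, SD, n = 3 each), to the serine synthesis enzyme PSAT1 at -1.64 and to the mitochondrial folate enzyme ALDH1L2 at -1.49. ALDH1L1 had 2 to 4 counts in a siControl library and 6 to 9 in a siPVT1 library, a ratio of 2.75 (95% exact interval 1.22 to 6.75, counting error only). Of 19 nucleotide kinases, 3 were lower and 10 higher, with a median of 0.25, beside the same 29.2% each way over all genes. The number lower was 5 without siPVT1 replicate 3 or with total count scaling. AK4, a mitochondrial adenylate kinase, rose by 1.19 (119.2 ± 1.41 to 271 ± 35.9 CPM, SD, n = 3 each) and AK7 by 2.22 from a low level, while AK8 fell by 1.13 at about 1 CPM. CMPK2 had 1 or 2 counts in a siControl library and 9 to 22 in a siPVT1 library, a ratio of 11.0 (95% exact interval 3.99 to 42.4, counting error only).

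Of 7 genes of deoxynucleotide synthesis, DCTD was lower and 4 were higher, with a median log2 fold change of 0.33. The number lower was 2 without siPVT1 replicate 3. SAMHD1, which degrades deoxynucleotides, rose by 1.19 past both thresholds. The reductase subunit RRM1 (-0.03, adjusted p = 0.867) and thymidylate synthase TYMS (0.23, adjusted p = 0.213) did not pass. Salvage, which recycles bases and nucleosides, showed 9 higher and 5 lower genes of 17 tested, with a median of 0.25. Its enzyme HPRT1, which returns hypoxanthine and guanine to nucleotides, was at 54.8 ± 1.55 CPM in siControl and 53.0 ± 7.18 CPM in siPVT1 (SD, n = 3 each, adjusted p = 0.7). SLC29A4 alone passed both thresholds there, rising by 2.45 from 0.187 CPM. Among 19 genes of breakdown and interconversion, 9 were higher and 6 lower, with a median of 0.11. TYMP rose by 1.57, the adenosine deaminase ADA by 1.51 and the AMP deaminase AMPD3, which returns AMP to IMP, by 1.38 (51.9 ± 1.78 to 134.8 ± 15.8 CPM, SD, n = 3 each), while the guanine deaminase GDA fell by 1.03. For comparison, 29.2% of all genes tested were lower and 29.2% higher at an adjusted p under 0.05.

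**Figure D4:**
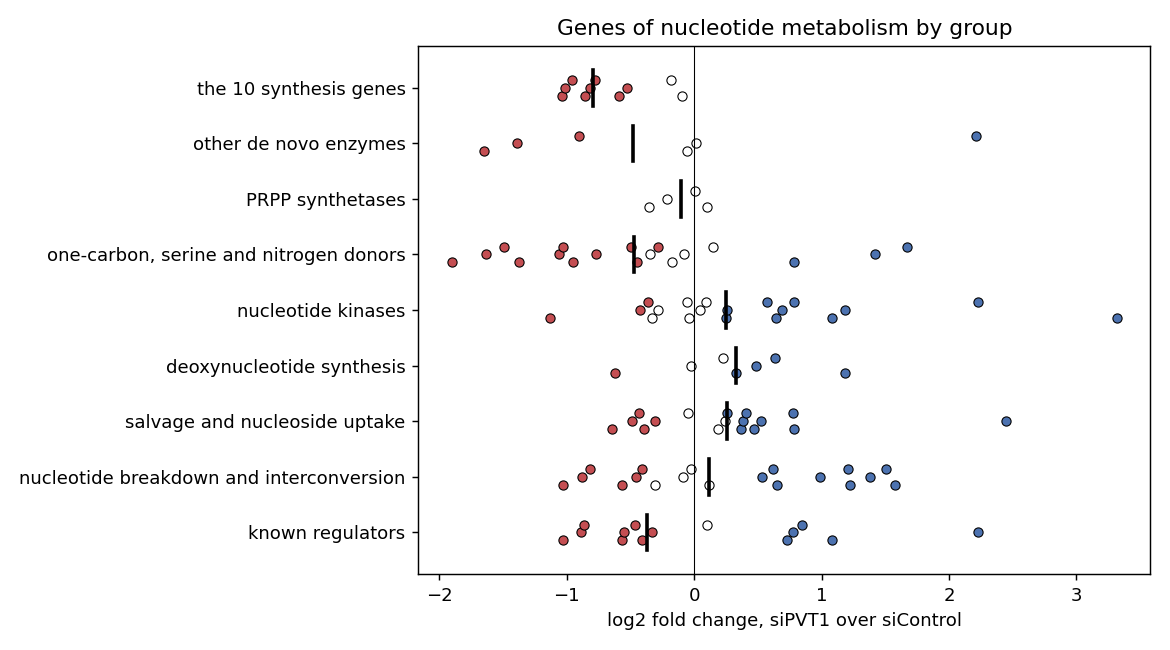
Log2 fold change, siPVT1 over siControl, of each tested gene in 9 groups of nucleotide metabolism and its regulation, with the median of each group as a black bar. Filled points have an adjusted p under 0.05 (red lower, blue higher) and open points do not, and the vertical scatter within a group has no meaning. The medians run from -0.80 for the 10 synthesis genes to 0.33 for deoxynucleotide synthesis.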

How the data were processed

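Libraries of mRNA were sequenced as single-end reads. STAR alignment to GENCODE transcripts (GRCh38.p13) was followed by Salmon, and the authors deposited its estimated counts, 1 whole number for each symbol, not normalized. The submitters' processing notes give STAR 2.7.3a and Salmon 0.14.1. Every entry of the table (59653) names a gene, and 25268 were at 0 throughout.

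The filter asked for 5 or more normalized counts in 3 or more libraries and left 19008 genes. They were compared with edgeR 4.0.16 (R 4.3.3), with TMM normalization, its quasi-likelihood test and Benjamini-Hochberg adjustment over all genes, with the siRNA as the only term. Adjusted p-values are from this test unless another is named. CPM are counts scaled by the TMM library size. SEs were taken from the size of the log2 fold change and the F statistic, and intervals use the t distribution of the test. Ratios of counts (pseudocount 0.5) were compared by exact permutation. The edgeR and DESeq2 fits were run on simulated data in which few genes changed, as many up as down. Far more genes passed in the real libraries, so that run cannot show how the fits behave there. The alternatives were DESeq2 1.42.0, its median-ratio factors, total count scaling, other filters, the replicate block, leaving out each library, a pseudocount of 5 and a test against a 2-fold change.

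Coordinates and lengths are from GENCODE v44 on GRCh38, promoter sequences from RefSeq. The 10 genes, the gene lists and the tests were chosen with earlier results of these data known. Named beside the 10 were all further de novo enzymes and PRPP synthetases, up to 3 higher and 3 lower genes past both thresholds in each other list, PVT1, MYC, MAX, ATF4, MTOR, facing neighbours and the 5 genes of most similar profile. RRM1, TYMS, DCTD, HPRT1, CTC1, NT5E, MNT, MXD4, MXD1 and MGA fell outside this rule and were named after their values were seen. The changes of single cell type markers were also added after their values were seen. The result for 1 gene that the rule names is not reported here.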

Additional observations from a re-analysis of the deposited data

How the results depend on the processing

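The median log2 fold change of the 10 synthesis genes stayed below 0 under every alternative run, and was -0.80 in DESeq2. Without 1 library it ran from -0.95 to -0.66. The 8 genes that fell stayed lower at an adjusted p under 0.05 in DESeq2, with either filter, under both other scalings and without any 1 library. The number past both thresholds, 2, ran from 0 to 4 without 1 library and was 0 in a test against a 2-fold change. In that test 6 genes of the other lists were lower in place of 11 and 10 higher in place of 16, and 1957 of all genes were called in place of 4076. Scaling by the total count shifted the median of all genes by -0.14, and changes are given relative to TMM. With it PAICS (-0.32, adjusted p = 0.0203), GMPS (-0.23, adjusted p = 0.0262), PRPS1 and PRPSAP2 passed as lower, and 43.8% in place of 54.0% of all genes past both thresholds were higher. That scaling turned the sign of ADSS2 (-0.12), PRPS2 (-0.039) and PRPSAP1 (-0.13), none of which passed. Without 1 library PRPSAP1 ran from -0.026 to 0.041, with the sign turned without siControl replicate 1 or replicate 2 (-0.024). ADSS2 ran from -0.023 to 0.048, turned without siControl replicate 2 or siPVT1 replicate 3 (-0.018), and CTPS2 from -0.091 to 0.015, turned without siPVT1 replicate 3. The cause was not tested.

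No shared effect of the replicate number was seen, as same-numbered libraries had correlations of -0.04, 0.04 and 0.003 between their deviations from the group mean. The labels do not say whether same-numbered libraries were prepared together, and these correlations cannot decide it. With the replicate block 8 of the 10 genes were again lower, 2 past both thresholds, the median was -0.82 and 10462 genes were called in place of 11099, and PRPS1 passed (-0.38, adjusted p = 0.043). Paired by number, the ratios could not go below p = 0.25 in an exact sign-flip test. All ratios kept their direction with a pseudocount of 5 and without any 1 library.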

Other observations

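Over the 6 libraries, the genes outside the 10 whose centred log2 profile lay closest to the mean profile of the 10 were DENR, STIP1, GNL2, ACTB and MAT2A, at Euclidean distances from 0.039 to 0.071. DENR, a translation reinitiation factor, was at 165, 156 and 163 CPM in siControl and at 86.0, 94.7 and 123 CPM in siPVT1 replicates 1, 2 and 3. STIP1, a cochaperone, was at 323, 299 and 317 CPM in siControl and at 165, 183 and 237 CPM in siPVT1. GNL2 acts in ribosome biogenesis and MAT2A makes S-adenosylmethionine. ACTB, which encodes beta-actin and is often used as a reference gene, was at 4441, 4448 and 4442 CPM in siControl and at 2422, 2605 and 3229 CPM in siPVT1, a log2 fold change of -0.69 (SE 0.10, adjusted p = 0.000591). In DENR, STIP1, GNL2, ACTB and MAT2A replicate 1 had the lowest and replicate 3 the highest level of the siPVT1 libraries. These genes were picked for their likeness to the 10 over the same libraries, so this order and their fall follow from the choice.

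Both IMP dehydrogenase genes kept a narrow range among the siPVT1 libraries, with a highest-to-lowest ratio of 1.01 for IMPDH2 and 1.04 for IMPDH1. This was not particular to them, as PRPSAP1 had a ratio of 1.01 and ADSS2 of 1.10. CTPS2 (1.16), PRPS2 (1.18) and GMPS (1.19) followed, and UMPS (1.72), CAD (1.69), CTPS1 (1.61) and PFAS (1.89) had wide ranges. NT5E, an ectoenzyme that releases adenosine outside the cell, was the most abundant gene of the breakdown list and rose from 771 ± 10.02 to 1778 ± 61.9 CPM (SD, n = 3 each) or by 1.20 on the log2 scale (SE 0.05, adjusted p = 1.78e-06).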
